A study of Mus musculus with 15 samples.

Results

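The 77 mouse genes whose symbol starts with Mrpl or Mrps followed by a digit are named for proteins of the mitochondrial ribosome (1 of them, Mrps36, is described below as a protein of another complex), and their RNA was followed in isolated heart muscle cells after proton irradiation. The array annotation held 48 such Mrpl genes, named for the large subunit, and 29 Mrps genes, named for the small subunit, among 19937 genes with a probe set of their own. Where a gene had several probe sets, the one with the highest mean over the 15 arrays was taken, and symbols ending in -ps (pseudogenes) were dropped. Mrpl53 was left out because its probe set carries a second gene symbol. All 77 genes passed the filter on low signal that left 12102 genes for testing, and 74 passed a stricter one.

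The mitochondrial ribosome translates the few messengers of the mitochondrial genome, all of which encode subunits of the respiratory chain and ATP synthase. Its RNAs come from that genome, while its proteins are encoded in the nucleus, made in the cytosol and imported. Part of these proteins descend from bacterial ribosomal proteins and part were added in mitochondria. Heart muscle is among the tissues richest in mitochondria, and inherited defects in several of these genes cause cardiomyopathy in people.

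The cells were left ventricular cardiomyocytes of adult male C57Bl/6NT mice, 8 to 9 months old, freed by collagenase digestion and selected for calcium tolerance. The mice had received a whole-body dose of 90 cGy of 1 GeV protons or a sham treatment, and carried no transgene or other genetic change by the labels. The groups were 3 sham samples (2 taken at day 1 and 1 at day 3) and proton samples of day 1 (2), day 3 (3), day 5 (3), day 12 (2) and day 26 (2). Days 5, 12 and 26 had no sham of their own, so time since sham treatment and proton exposure cannot be told apart there. Each array gave log2 signals, whose precision is limited by how few arrays there are. Replicates 1 and 2 of proton day 5 held almost identical values, with an SD of their log2 differences of 0.0768 against 0.222 or more for the other pairs. Their mean was used as 1 sample, so 14 samples entered the fits. The labels do not tie the arrays of a group to different mice, so the p-values below measure only the spread between these samples, which may be technical.

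Promoters of these genes are shown to describe their sequence, and whether the motifs bear on the levels below was not tested. RefSeq (GRCm38.p6) gave a window from 250 bases before to 50 after the start for 68 of the 77 genes. Exact matches on both strands were counted for 4 motifs of factors known to act on nuclear genes for mitochondrial proteins or on many active promoters. CCGGAAG, the core bound by ETS factors such as GABPA, stood in 25 promoters (36.8%), against 18.6% of the promoters of the genes tested. GCGCATGCG, bound by NRF1, stood in 7 (10.3% against 3.93%), and AAGATGGCG, bound by YY1, in 8 (11.8% against 3.28%). GGGGCGGGG, bound by Sp1, stood in 13 (19.1% against 24.7%). Of the 68 promoters, 44 (64.7%) held any of the 4, against 42.7% of the tested genes with a window. Counted from the start, the ETS matches had a median position of -17, the NRF1 matches of -86 and the YY1 matches of 18.5. The 120 bases that end just before the start are given for 4 genes discussed below, the first among the named genes to hold a whole motif there, with the motif in capitals. They are Mrps24 (chr11:5707702-5707821, minus strand, Sp1), Mrpl43 (chr19:45006443-45006562, minus strand, ETS in 2 places), Mrps27 (chr13:99344666-99344785, plus strand, ETS) and Mrpl58 (chr11:115403632-115403751, plus strand, ETS). The start meant here is that of the promoter window. For Mrps27 and Mrpl58 it lies inside the RefSeq gene span, which begins at 99344767 and 115403724. Their printed bases thus run into that span, and the marked match of Mrpl58 lies within it.
Mrps24: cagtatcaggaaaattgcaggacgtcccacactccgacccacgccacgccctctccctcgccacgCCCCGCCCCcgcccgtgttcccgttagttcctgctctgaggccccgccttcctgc
Mrpl43: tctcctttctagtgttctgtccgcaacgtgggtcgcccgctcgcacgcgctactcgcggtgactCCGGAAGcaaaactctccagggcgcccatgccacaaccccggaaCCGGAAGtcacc
Mrps27: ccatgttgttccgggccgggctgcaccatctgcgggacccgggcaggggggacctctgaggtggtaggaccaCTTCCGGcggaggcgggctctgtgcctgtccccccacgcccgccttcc
Mrpl58: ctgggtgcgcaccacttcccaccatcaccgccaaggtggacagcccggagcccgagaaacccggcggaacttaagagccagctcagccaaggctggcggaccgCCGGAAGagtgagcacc
These matches describe letters in the windows and were not tested for binding in these cells. The promoter of Mrpl44, the gene with the smallest p-values below, held none of the 4 motifs in its window.

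The genes are spread over 17 chromosomes, with 11 on chromosome 11 and 8 on chromosome 17. Their mean log2 signals ran from 5.84 to 11.4 with a median of 8.17. Those nearest the filter at 5.00 were Mrpl22, which ranged from 5.52 to 6.12 over the samples, and Mrps12, which ranged from 5.88 to 6.28. By RefSeq, 24 of the genes overlap another gene and 19 overlap a protein-coding one, so a probe set may read both. Mrpl23, Mrpl27, Mrpl48 and Mrps36 have annotated pseudogenes, and their levels are uncertain for that reason. Each of 8 genes had a second, dimmer probe set, which was not used. It differed in sign from the chosen one against sham for Mrpl27 at days 1 and 12 and for Mrps33 at day 3, where the second set had a mean signal of only 2.75, and late against early for Mrpl23 and Mrps33.

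The sample with the lowest signal was proton day 12 replicate 2 for 60 of the 77 genes, against 11.8% of all genes tested. The sample with the highest was a sham sample for 55 of them, against 21.1% of all genes, and these split into 32 for sham replicate 3 (9.18% of all genes), 23 for sham replicate 1 (6.38%) and 0 for sham replicate 2 (5.58%). The range over the 14 samples had a median of 0.62 log2 units, and the pooled SD within groups a median of 0.167. Mrpl42, the brightest gene, had the narrowest range (0.24), and Mrps21 was the one gene with a range above 1 (1.51). The heatmap shows the low column of proton day 12 replicate 2 across both subunits.

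**Figure D1:**
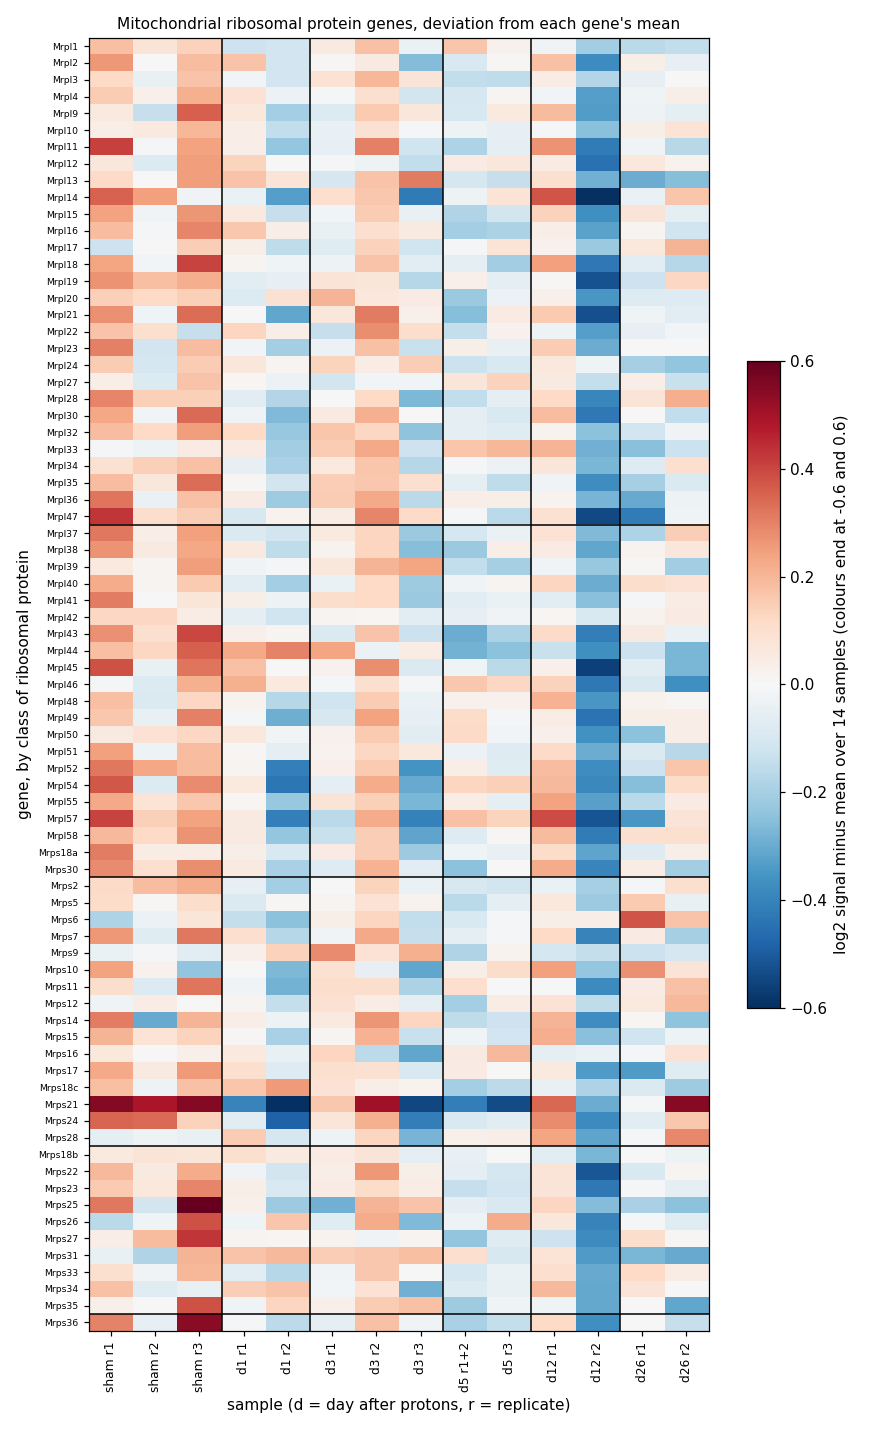
Deviation of each gene's log2 signal from its own mean (colour) for the 77 genes (rows, grouped as large-subunit bacterial homologs, large-subunit mitochondria-specific, small-subunit bacterial homologs, small-subunit mitochondria-specific and Mrps36) in the 14 samples (columns, by group). Proton day 12 replicate 2 is the lowest column for 60 genes, and sham replicates 1 and 3 hold the highest value for 55.

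The mean deviation over the 77 genes was 0.18, 0.03 and 0.20 in sham replicates 1, 2 and 3. In the proton samples it was 0.03 and -0.12 (day 1), 0.02, 0.15 and -0.09 (day 3), -0.07 and -0.04 (day 5), 0.09 and -0.32 (day 12), and -0.05 and -0.02 (day 26). By group the order was sham (0.14 ± 0.10, SD, n = 3), day 3 (0.03 ± 0.12, n = 3), day 26 (-0.03 ± 0.02, n = 2), day 1 (-0.05 ± 0.10, n = 2), day 5 (-0.05 ± 0.02, n = 2) and day 12 (-0.11 ± 0.30, n = 2). Neighbours in this order differed by at most 0.11, less than the pooled within-group SD of 0.134. Sham replicate 2 lay within the range of the proton samples, while sham replicates 1 and 3 lay above every proton sample.

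Markers of several other cell types moved the opposite way in many samples. The mean deviation of endothelial, fibroblast and macrophage markers was -0.26, -0.06 and -0.48 in the sham samples and 0.12 and 0.50 at day 1. It was -0.62, -0.73 and 0.53 at day 3, -0.06 and 0.10 at day 5, -0.28 and 0.74 at day 12, and 0.46 and 0.05 at day 26. Proton day 12 replicate 2 was thus the highest sample for these markers and the lowest for the ribosomal protein genes. All 10 endothelial and all 12 macrophage and monocyte markers had higher means than sham at days 1, 12 and 26, as did 9 or 10 of the 10 fibroblast markers. At day 3 only 5 endothelial, 3 macrophage and monocyte and 7 fibroblast markers were higher, and at day 5 the counts were 8, 11 and 10. The summed endothelial level, given as the mean per marker, ran from 7.59 to 8.02 in sham and from 7.83 to 8.65 at day 12, and the macrophage level from 6.37 to 6.87 and from 6.62 to 7.73. Mesothelial markers were also higher than sham, 6 of 6 on each of the 5 days. Of the 6 smooth muscle and pericyte markers, 3, 2, 2, 3 and 5 were higher on days 1, 3, 5, 12 and 26. Some defining markers lay above the filter level of 5.00 in every sample (Pecam1 of endothelium from 7.29 to 8.94, Cd68 of macrophages from 6.37 to 7.82, Col1a1 of fibroblasts from 6.29 to 7.36). Others did not, such as Itgam of macrophages (4.29 to 7.55). The mean deviation of the 8 ventricular cardiomyocyte markers ran from -0.08 to 0.07 over the samples, and all 8 had high signals. Actc1, the brightest of them, ran from 12.59 to 12.7, near the highest value on any array (12.94). The flat mean was not tested as a measure of cardiomyocyte content. Myh6, the main myosin heavy chain of adult mouse heart, ran from 11.83 to 12.03, while Ttn, the giant spring protein titin, ran more widely from 10.72 to 11.56 and Ryr2, the calcium release channel, from 10.85 to 11.34. All 4 atrial markers had higher means than sham at days 3, 5 and 26, with median differences of 1.00, 1.63 and 2.15, and 1 and 3 of them did at days 1 and 12. Sln, one of these, ran from 2.78 to 7.26 and its mean lay under the filter. Of the blood lists, the 3 erythroid markers on the array had a mean deviation of 2.48 in proton day 1 replicate 2, 1.27 in sham replicate 2, 1.07 in proton day 12 replicate 2 and 1.01 in proton day 3 replicate 3, the sample of each of these groups with the lowest mean of the 77 genes. In every sample of days 5 and 26 it was below 0. Neutrophil markers were highest in the same sample of each of these 4 groups (1.93, 0.39, 0.49 and 0.71), and lymphocyte markers were highest in proton day 26 replicate 2 (0.94) and day 12 replicate 2 (0.84). Only the endothelial, fibroblast and macrophage score entered a fit below, and the part of the other lists was not tested. In bulk RNA of this kind, fewer cells of a type and less RNA per cell cannot be told apart.

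**Figure D2:**
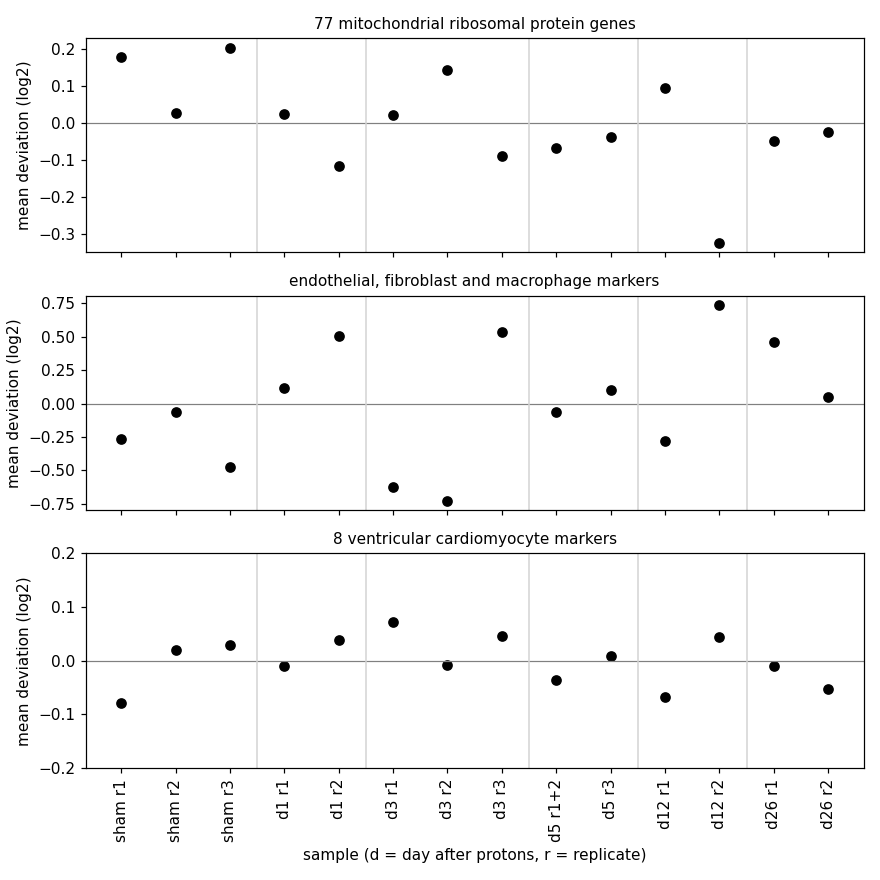
Mean deviation from each gene's own mean (log2, vertical axis) in the 14 samples (horizontal axis) for the 77 ribosomal protein genes, for markers of endothelial cells, fibroblasts and macrophages, and for ventricular cardiomyocyte markers; the vertical scales differ. Proton day 12 replicate 2 is lowest in the top panel (-0.32) and highest in the middle panel (0.74).

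At every day after protons most of the genes had lower means than the pooled sham samples, and none passed the test. limma with Benjamini-Hochberg adjustment over 12102 genes called 0 of the 77 at each day, while the share of all genes called was 0.0% (day 1), 0.00826% (day 3), 0.0496% (day 5), 0.0% (day 12) and 0.0413% (day 26). The smallest adjusted p among the 77 was 0.754, 0.451, 0.378, 0.506 and 0.181 on these days. At an unadjusted p under 0.05, 8 genes were lower and 0 higher on day 1 (2.96% and 2.55% of all genes), and 1 and 1 on day 3 (2.57% and 6.29%). The counts were 14 and 0 on day 5 (4.78% and 4.21%), 24 and 0 on day 12 (4.62% and 3.39%), and 10 and 1 on day 26 (5.67% and 8.60%).

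The number of genes with a mean below sham was 66, 66, 68, 75 and 70 of the 77 on days 1, 3, 5, 12 and 26. Over all genes tested the shares below sham were 51.7%, 49.0%, 48.8%, 48.1% and 41.2%. Most genes of complex I and most cytosolic ribosomal protein genes were also below sham on each day, with counts given further below. The median difference of the 77 genes was -0.18, -0.11, -0.19, -0.28 and -0.19 on the log2 scale, beside medians of all genes of -0.01, 0.00, 0.01, 0.01 and 0.05. Differences below -0.2 were found for 37, 16, 36, 54 and 37 genes, against 14.6%, 11.8%, 12.8%, 13.8% and 12.8% of all genes. Every proton sample lay below every sham sample for 30, 5, 44, 25 and 36 genes on days 1, 3, 5, 12 and 26, against 14.9%, 4.39%, 15.8%, 11.2% and 14.1% of all genes. In the opposite direction the counts were 1, 1, 2, 0 and 3 on days 1 to 26, against 14.2%, 8.0%, 16.8%, 9.92% and 24.7% of all genes. A mean below sham on all 5 days was found for 55 genes (17.6% of all genes) and a mean above sham on all 5 days for 0 (21.0%). The 5 comparisons share the same sham samples, so these counts are not independent of each other. The genes are not independent either. Over the 14 samples, each gene's correlation with the mean of the others had a median of 0.79 and was above 0.5 for 67 genes. A shift in 1 sample can thus move most of them together. Mrps28 was above sham on 4 days, and Mrps31 and Mrps6 on 3.

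With the score of other cells (the mean deviation of the endothelial, fibroblast and macrophage markers in each sample) as a covariate in the fit, the medians were -0.06, -0.11, -0.12, -0.13 and -0.05 on days 1, 3, 5, 12 and 26, and 52, 66, 59, 70 and 48 of the 77 genes were below 0. At day 12 the median was -0.05 without proton day 12 replicate 2 and -0.46 without replicate 1. At day 3 it was -0.06 without proton day 3 replicate 3, -0.07 without sham replicate 3 and -0.16 without sham replicate 2.

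**Figure D3:**
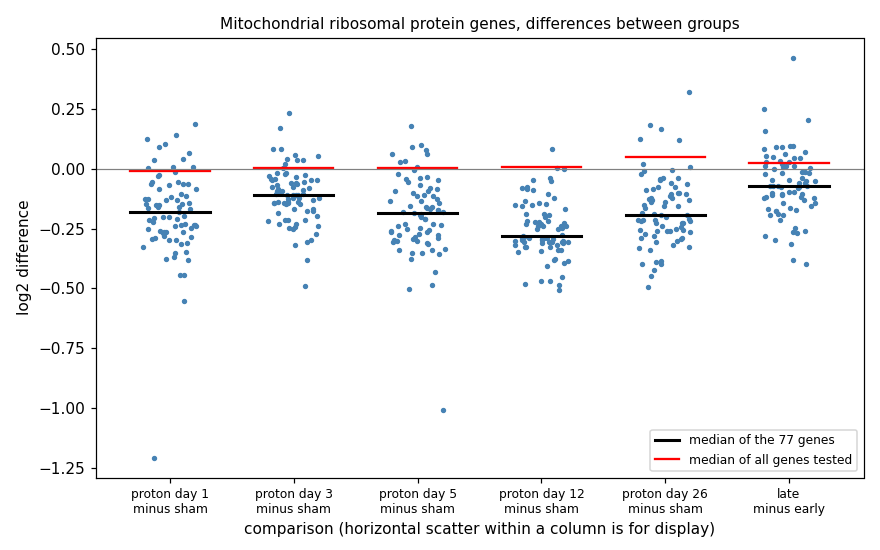
Log2 difference (vertical axis) of each of the 77 genes (points) in each proton day minus sham and in days 12 and 26 minus days 1 and 3 (late minus early); black lines are the medians of the 77 genes and red lines the medians of all 12102 genes tested. The medians of the 77 genes lie between -0.28 and -0.11 on the days against sham, and Mrps21 is the lowest point at day 1 (-1.21) and day 5 (-1.01).

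Mrpl44 (Entrez 69163, chr1:79776018-79781445), a large-subunit protein with a ribonuclease III-like fold, had the smallest p-values of the group at days 5, 12 and 26. Its log2 signal was 6.96, 6.91 and 7.14 in sham, 7.01 and 7.08 at day 1, 7.02, 6.75 and 6.83 at day 3, 6.50 and 6.54 at day 5, 6.65 and 6.42 at day 12, and 6.65 and 6.51 at day 26. The samples of days 5, 12 and 26 all lay below the samples of sham, day 1 and day 3. The difference from sham was 0.04 at day 1 and -0.14 at day 3. It was -0.48 ± 0.12 (SE, 1.40-fold lower; limma adjusted p 0.378) at day 5, -0.47 ± 0.12 (adjusted p 0.506) at day 12 and -0.42 ± 0.12 (adjusted p 0.181) at day 26. Wdfy1, which overlaps it by 126 bases, differed from sham by -0.31, 0.08 and 0.36 on these 3 days.

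Mrps21 (Entrez 66292, chr3:95862634-95871514), a small-subunit protein with a bacterial homolog, had the widest range. Its signal was 10.77, 10.71 and 10.77 in sham, 9.82 and 9.27 at day 1, 10.38, 10.73 and 9.67 at day 3, 9.80 and 9.68 at day 5, 10.56 and 9.92 at day 12, and 10.21 and 10.77 at day 26. The sham samples lay close together at the top, the samples of days 1 and 5 lay clearly below them, and those of days 3, 12 and 26 were spread out. The difference was -1.21 ± 0.28 (2.31-fold lower; adjusted p 0.754, unadjusted 0.000987) at day 1 and -1.01 ± 0.28 (2.01-fold lower; adjusted p 0.381) at day 5 by limma. At day 5 it passed the threshold when only day 5 and sham were fitted (limma adjusted p 0.000936) and with the score of other cells as a covariate (-0.80, adjusted p 0.00634). With that covariate it also passed at day 3 (-0.49, limma adjusted p 0.0393, against 0.5997 without it). Over all 12102 genes, 11 passed in the fit of only day 5 and sham. With the covariate 17 passed at day 5 and 89 at day 3, against 6 and 1 in the main fit.

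Mrps27, a pentatricopeptide-repeat protein of the small subunit (Entrez 218506, chr13:99344767-99415562), read 7.53, 7.68 and 7.92 in sham, 7.51 and 7.51 at day 1, 7.51, 7.47 and 7.51 at day 3, 7.25 and 7.42 at day 5, 7.37 and 7.12 at day 12, and 7.60 and 7.50 at day 26. Every sample of days 1, 3, 5 and 12 lay below the sham samples, and day 26 overlapped them. Its difference was -0.38 ± 0.12 (adjusted p 0.452) at day 5 and -0.47 ± 0.12 (adjusted p 0.526) at day 12 by limma. The promoter printed above for Mrps27 carries an ETS match at position -48.

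Mrpl35, a large-subunit protein with a bacterial homolog (Entrez 66223, chr6:71812997-71823784), read 9.24, 9.12 and 9.39 in sham, 9.06 and 8.94 at day 1, 9.20, 9.22 and 9.15 at day 3, 9.00 and 8.90 at day 5, 9.03 and 8.68 at day 12, and 8.85 and 8.97 at day 26. Its day 3 samples overlapped sham, while those of the other days lay below it. The difference was -0.39 ± 0.11 (adjusted p 0.540) at day 12 and -0.34 ± 0.11 (adjusted p 0.222) at day 26 by limma.

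A few genes had higher means than sham on some days. Mrps9, a small-subunit protein with a bacterial homolog (Entrez 69527, chr1:42851233-42905683), read 7.62, 7.65 and 7.59 in sham, 7.69 and 7.80 at day 1, 7.94, 7.74 and 7.87 at day 3, 7.48 and 7.68 at day 5, 7.55 and 7.52 at day 12, and 7.53 and 7.56 at day 26. Its samples of days 1 and 3 all lay above the sham samples and those of days 12 and 26 below them. The difference was 0.23 ± 0.09 (limma adjusted p 0.451) at day 3. Mrps6, the homolog of a bacterial small-subunit protein (Entrez 121022, chr16:92058336-92112227), read 8.59, 8.74 and 8.85 in sham and 9.15 and 8.95 at day 26, with no overlap. The difference was 0.32 ± 0.11 (limma adjusted p 0.225). The gene Slc5a3, a myo-inositol transporter, overlaps Mrps6 by 29138 bases, and its own difference at day 26 was 0.94 ± 0.66.

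**Figure D4:**
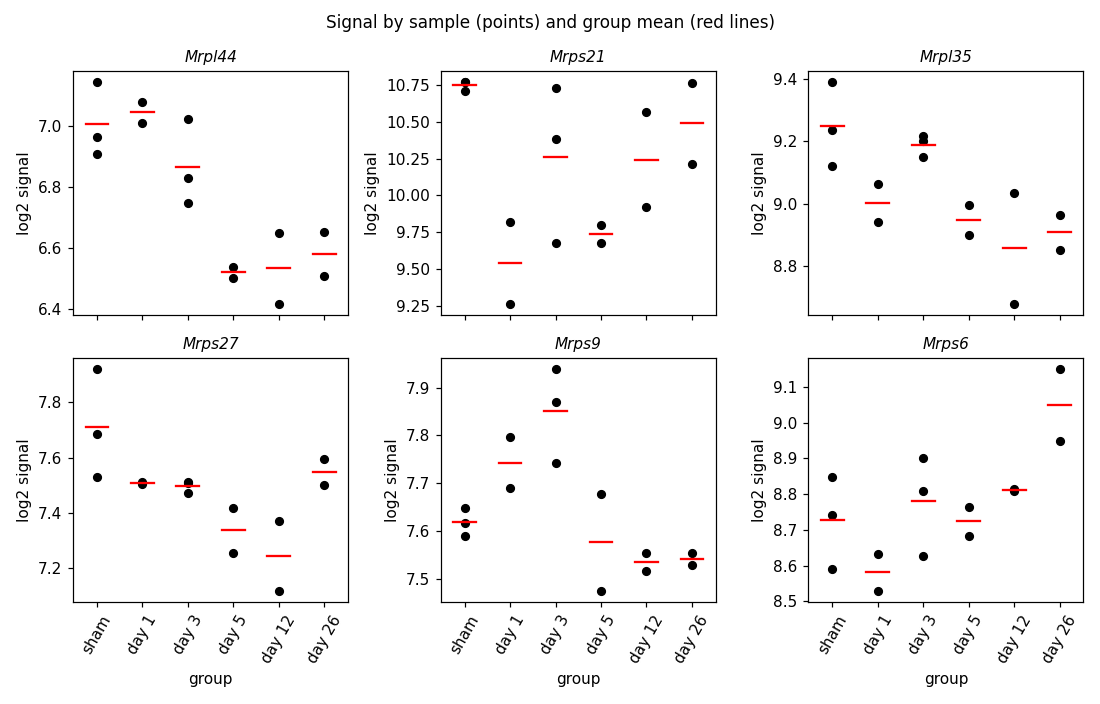
Log2 signal (vertical axis, a separate scale in each panel) of Mrpl44, Mrps21, Mrpl35, Mrps27, Mrps9 and Mrps6 by group (horizontal axis); points are samples and red lines group means. The days 5, 12 and 26 samples of Mrpl44 lie between 6.42 and 6.65, below the 6.75 to 7.14 of sham, day 1 and day 3.

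The other genes named by the smallest p-values were lower than sham by smaller amounts or with more spread. At day 1 these were Mrpl42 (-0.18 ± 0.05), Mrps2 (-0.30 ± 0.09), Mrps24 (-0.55 ± 0.21) and Mrpl1 (-0.25 ± 0.10), each with both day 1 samples below sham. At day 3 they were Mrpl42 (-0.11 ± 0.05), Mrpl43 (-0.27 ± 0.13) and Mrpl58 (-0.30 ± 0.15), the last a large-subunit protein that also releases stalled peptides. At day 5 they were Mrpl43 (-0.50 ± 0.15) and Mrpl16 (-0.35 ± 0.12), at day 12 Mrpl19 (-0.48 ± 0.14) and Mrps2 (-0.29 ± 0.09), and at day 26 Mrpl24 (-0.29 ± 0.10) and Mrpl13 (-0.40 ± 0.14). Mrpl43 and Mrps24, whose promoters are printed above, carry different motifs there.

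Among genes known for cardiomyopathy in people (Mrpl3, Mrpl44, Mrps14, Mrps22), 3, 2, 4, 4 and 4 of the 4 were below sham on days 1, 3, 5, 12 and 26, with 0 called and medians of -0.11, -0.00, -0.24, -0.26 and -0.19. Mrpl3, a large-subunit protein near the peptidyl transferase centre, differed by -0.23 ± 0.09 at day 5 with both samples below sham. Mrps22, specific to mitochondria, differed by -0.38 ± 0.15 at day 12, where its samples of 7.45 and 6.86 overlapped sham (7.43 to 7.59). Mrps14 differed from sham by -0.21 at day 5 and 0.08 at day 3, inside its own spread in sham (6.60 to 7.20). The stalk proteins, which recruit translation factors, differed at day 12 by -0.23 (Mrpl10), -0.29 (Mrpl11) and -0.28 (Mrpl12). Mrpl45, which anchors the ribosome at the inner membrane near the exit tunnel, differed by -0.49 ± 0.18 at day 12, and Mrps12, of the decoding centre, by -0.04. Mrps18a and Mrps30, which sit in the large subunit despite their names, were below sham on all 5 days, with differences from -0.24 to -0.14 and from -0.34 to -0.20. Mrps36, now known as a component of the 2-oxoglutarate dehydrogenase complex rather than of the ribosome, was also below sham on all 5 days (-0.43 to -0.23).

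Both subunits and both origins showed lower medians than sham on each day, with 0 genes called. Among the 29 large-subunit proteins with bacterial homologs, 27, 24, 26, 29 and 28 were below sham on days 1, 3, 5, 12 and 26, and among the 21 specific to mitochondria, 19, 20, 20, 21 and 21. Of the 16 small-subunit bacterial homologs, 13, 12, 13, 14 and 11 were below sham, and of the 10 small-subunit proteins specific to mitochondria, 6, 9, 8, 10 and 9. The medians at day 12 were -0.28 and -0.29 for the large subunit and -0.15 and -0.27 for the small one. The differences between these classes were not tested.

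The second question, how the later days differed from the earlier ones, needs no sham. The mean of days 12 and 26 minus that of days 1 and 3 had a median of -0.07 over the 77 genes (0.03 over all genes), with 53 genes below 0 (43.2% of all genes) and 0 called by limma (0.00826% of all genes called, smallest adjusted p 0.146). At an unadjusted p under 0.05, 12 were lower and 2 higher (6.38% and 6.86% of all genes). Mrpl44 had the smallest p, at -0.40 ± 0.09 (adjusted p 0.146), with its 4 later samples (6.42 to 6.65) all below the 5 earlier ones (6.75 to 7.08). Mrps31 (-0.38 ± 0.10), Mrps18c (-0.26 ± 0.07) and Mrps9 (-0.26 ± 0.07), each with an adjusted p of 0.194, also had no overlap, and Mrps6 was higher by 0.25 ± 0.08 (adjusted p 0.229). These 4 genes lay wholly below, as did 2.59% of all genes, and 0 lay wholly above (1.48% of all genes). With the array medians made equal, 71 genes were below 0 and the median was -0.16, beside -0.07 over all genes. Without proton day 12 replicate 2 the count below 0 was 30 and the median 0.05, so the direction of the median rested on that sample. The median was -0.18 without proton day 12 replicate 1, and -0.03 when either the first replicate of proton day 1 or the second of proton day 3 was left out. With the score of other cells as a covariate, the median was -0.01, and 2 genes passed, Mrpl44 (-0.38, limma adjusted p 0.0391) and Mrps21 (0.63, adjusted p 0.00473). Over all 12102 genes tested, 360 passed in that fit, against 1 in the main fit.

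The F-tests asked whether any proton day differed from sham, or any proton day from another. limma called 0 of the 77 genes in either (0.0248% and 0.0% of all genes called), with smallest adjusted p-values of 0.260 and 0.379, both for Mrpl44. At an unadjusted p under 0.05 the counts were 11 (9.54% of all genes) and 8 (8.43%). After Mrpl44, the first test ranked Mrps21, Mrps18c, Mrpl35 and Mrpl39, and the second Mrps18c, Mrps9, Mrps6 and Mrpl39.

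Genes that work with the mitochondrial ribosome gave 0 calls on any day. The differences between their lists were not tested. The 6 genes tested from a list of ribosomal proteins named without the usual prefix were all below sham on all 5 days, with medians from -0.28 to -0.18. This list includes Mrpl58 and Mrpl57, which carry the prefix on this array and belong to the 77, so it partly repeats their values. Ptcd3 of the list, which binds the small ribosomal RNA, differed by -0.31 ± 0.11 at day 26. Of 15 translation factors, 12, 9, 15, 14 and 15 were below sham on days 1, 3, 5, 12 and 26 (medians -0.10, -0.04, -0.19, -0.19 and -0.15), and 15 were lower late than early. The smallest p was that of Guf1, a ribosome-bound GTPase (-0.45 ± 0.10 at day 26, limma adjusted p 0.110). Guf1 read 7.92, 7.79 and 7.88 in sham and 7.29 and 7.53 at day 26. Of 16 mitochondrial aminoacyl-tRNA synthetases, 14, 10, 15, 15 and 11 were below sham on these days (medians -0.11, -0.04, -0.13, -0.21 and -0.11). The smallest p was that of Rars2, the arginyl-tRNA synthetase (-0.53 ± 0.11 at day 26, limma adjusted p 0.0826), which read 7.19, 7.08 and 7.17 in sham and 6.70 and 6.54 at day 26. In the list of 19 assembly and rRNA modification genes tested, 16, 13, 16, 17 and 15 were below sham (medians -0.18, -0.06, -0.15, -0.14 and -0.05). Its member Mtg1, a GTPase of large-subunit assembly, was higher at day 5, reading 7.11 and 7.07 against 6.50, 6.56 and 6.66 in sham (0.52 ± 0.13, limma adjusted p 0.378).

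Genes for mitochondrial transcription and genome maintenance had medians from -0.10 to 0.01, with 10, 8, 11, 12 and 9 of 18 below sham. Ppargc1a, a coactivator of mitochondrial biogenesis, read 10.37, 10.25 and 9.98 in sham and 10.72, 10.55 and 10.62 at day 3, with no overlap (0.43 ± 0.11, limma adjusted p 0.271). For comparison, lists chosen after values were seen gave medians of -0.11, -0.07, -0.08, -0.01 and -0.04 for 52 cytosolic ribosomal protein genes and -0.11, -0.02, -0.12, -0.11 and -0.09 for 43 genes of complex I on days 1, 3, 5, 12 and 26. Of the 52 cytosolic ribosomal protein genes, 44, 42, 41, 32 and 36 were below sham on these days. Of the 43 complex I genes, 37, 27, 37, 38 and 34 were. The differences between these lists and the 77 genes were not tested.

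**Figure D5:**
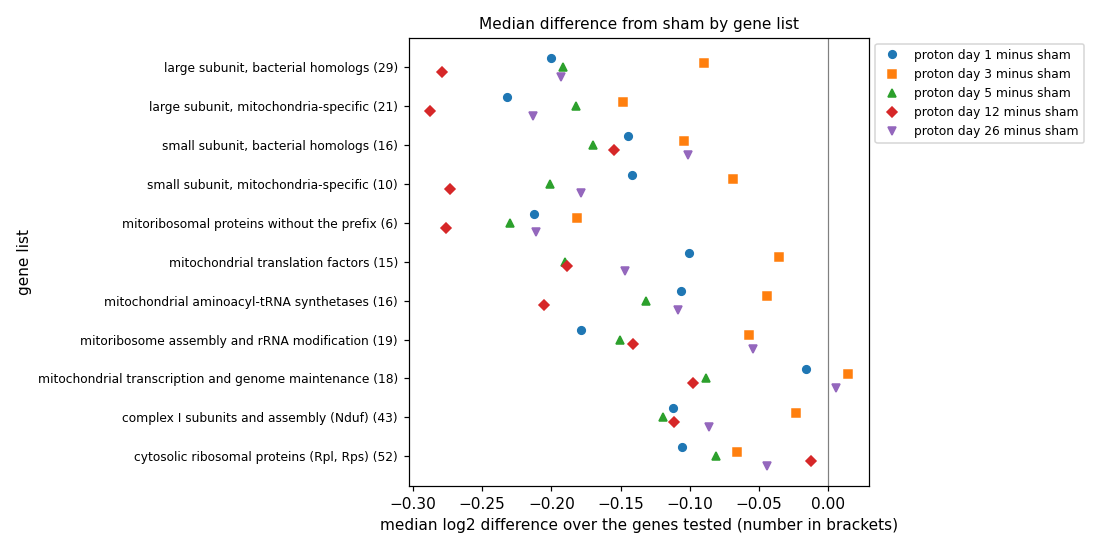
Median log2 difference from sham (horizontal axis) over the genes tested in each list (vertical axis, number of genes in brackets) on each proton day (marker shapes). The lists of mitochondrial ribosomal proteins lie left of 0 on all 5 days, and at day 12 the medians of the large-subunit lists are -0.28 and -0.29.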

How the data were processed

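The authors deposited log2 signals of 15 Affymetrix Mouse Gene 1.0 ST arrays for 34760 probe sets. MAS5 is named, with no version, per the submitters' processing notes; background correction and normalization are not given in the sources used here. The values were used as they were. The series design text names other late days than the sample titles, and the days of the titles were used.

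Genes with a mean above the median of all probe sets (5.00) were kept. The 14 samples of 6 groups entered one limma fit (version 3.58.1, R 4.3.3; lmFit, then eBayes with trend) that left 8 residual degrees of freedom, and Benjamini-Hochberg adjustment ran over the 12102 genes at 0.05. Tables were joined in Python 3.11.15. The procedure was tested on simulated data. Errors are the fitted SE for differences and the SD for group values. Deviations of same-numbered samples from their group means had correlations from -0.722 to 0.457 (31 pairs, median -0.0063, 10 above 0.1). No pairing was used in the main fit, and whether some of these samples shared a preparation was not tested.

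The rule for named genes took the 5 smallest p-values of each test, 12 fixed genes, genes nearest the filter and genes whose probe sets disagree; for other lists, those with the smallest p. Mrps28, Wdfy1, Slc5a3, Mrpl57 and the marker genes were named outside it. The members and lists were chosen with earlier results of these data known. Alternatives were other scalings, filters, probe set rules, variance models, sham of day 1 only, the groups compared alone, a replicate block, a covariate for other cells and leaving out each sample.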

Additional observations from a re-analysis of the deposited data

How the results depend on the processing

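Of 1366 values of named genes under alternatives, 1362 kept their side of the threshold, 4 newly passed it and 0 changed sign. These values include adjusted p-values of the F-tests, which have no sign. They also include fits without a sample from outside the groups compared, which cannot change the log2 difference. Part of this agreement was therefore fixed in advance. With the score of other cells as a covariate, the number of the 77 genes called was 1 at day 3 (Mrps21, limma adjusted p 0.0393), 1 at day 5 (Mrps21, adjusted p 0.00634), 2 late against early, 1 for any proton day against sham (Mrps21, adjusted p 0.00433) and 1 among proton days (Mrps21, adjusted p 0.00941). The medians with it were -0.134 at day 12 and -0.0512 at day 26. Over all 12102 genes, the fit with this covariate called 89 at day 3, 17 at day 5 and 360 late against early. The main fit called 1, 6 and 1 in these comparisons. The count over all genes with the covariate is not given here for the F-tests. With only the groups compared in the fit, 1 of the 77 genes was called at day 5 (Mrps21, limma adjusted p 0.000936), and 11 of all 12102. The cause of these changes was not tested. Leaving out 1 sample at a time called 0 genes throughout, and gave medians from -0.252 to -0.128 at day 1, -0.162 to -0.0572 at day 3, -0.247 to -0.159 at day 5, -0.4605 to -0.0481 at day 12, -0.242 to -0.131 at day 26 and -0.1775 to 0.0517 late against early. The counts below 0 ran over 60 to 70, 59 to 70, 65 to 70, 50 to 76, 66 to 72 and 30 to 71. A replicate block was fitted without the sham sample of day 3 and with proton day 5 replicates 1 and 2 as separate samples. It called 0 of the 77 genes, and the medians were -0.138, -0.0429, -0.153, -0.229, -0.166 and -0.0765. Equal array medians moved the median of all genes at day 26 from 0.05 to -0.05, and that of the 77 genes from -0.19 to -0.30.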
